A study of Arabidopsis thaliana with 4 samples.

Results

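Small auxin-up RNA (SAUR) genes form a large plant family, and 58 of its *Arabidopsis* loci were listed by locus tag. A locus was kept where the array's probe table names a probe set for that gene alone, which was the case for 2 of the 58: SAUR10 (AT2G18010) and SAUR57 (AT3G53250). These are 2 of 13355 genes that the table names alone for a probe set. The array has 22746 probe sets beside its controls, and for 8730 of them the table names no gene. A locus that is not named may therefore still have a probe set on the array. The other 56 loci were not analysed here. They include SAUR15 (AT4G38850, also called SAUR-AC1), SAUR19 to SAUR24 (AT5G18010 to AT5G18080) and SAUR63 (AT1G29440), so nothing below describes the family as a whole or its growth-promoting members of those names. None of the 58 is named in a probe set that the table gives to several genes.

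SAUR genes were found as transcripts that accumulate within minutes of auxin treatment, and they encode small proteins whose mRNAs are short lived. Several SAUR proteins of *Arabidopsis*, SAUR19 among them, inhibit D-clade type 2C protein phosphatases, which keeps plasma-membrane proton pumps active and promotes cell expansion by acidifying the wall. AtRALF1 is a peptide that is perceived by the receptor kinase FERONIA, lowers proton pump activity and slows cell elongation. SAUR transcripts also follow light and the circadian clock. SAUR10 is known in *Arabidopsis* as a gene raised by auxin and brassinosteroid and repressed by the transcription factor FRUITFULL.

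Expression was measured on 4 Affymetrix arrays of RNA from entire seedlings 7 d old, a first and a second repeat for each of 2 groups. The 35S:AtRALF1 samples combined equal RNA of a pair of transgenic lines that carry AtRALF1-1 behind the near-ubiquitous 35S promoter, and the control samples combined wild type with plants carrying the empty pART27 vector. All plants grew on vertical plates under a 16 h day after cold treatment. Values are linear signals, and a repeat may be a separate planting or a repeat hybridization, so the spread between repeats may be technical. In bulk RNA of this kind, fewer cells of a type and less transcript per cell cannot be told apart. AtRALF1 is not named in the probe table, so its level in the 35S:AtRALF1 samples was not examined. Organ markers were nearly all unnamed: of 18 shoot markers 2 were measured, with summed signals of 17481 and 16176 in 35S:AtRALF1 and 19987 and 15816 in control seedlings, and of 12 root markers 3 were, with sums of 5983 and 4407 in 35S:AtRALF1 and 7277 and 6307 in control seedlings. The root sum is nearly all PYK10, a beta-glucosidase abundant in roots (5715 and 4085 in 35S:AtRALF1, 7079 and 6101 in the control). The root-hair expansins had higher signals in 35S:AtRALF1, at 111.3 and 130.7 against 62.2 and 107.1 in the control for EXPA7, and 156.8 and 190.8 against 135.7 and 99.6 for EXPA18. None of these 3 root markers was called (limma adjusted p = 0.987 for each). Of all probe sets, 13.3% were separated upward like the expansins and 18.1% downward like PYK10. None of these 5 markers was at 0, and their part in the SAUR values was not tested.

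Both SAUR genes were dim. No detection call was used. A signal below the 40th percentile of its array (28.5 to 34.6 signal units on these arrays) was treated as not told from background, which is a chosen cutoff and not a measured limit. SAUR10 lay below that level on 3 of 4 arrays, between the 24.1 and 28.4 percentiles, and reached the 45.0 percentile on the control array of the second repeat. SAUR57 lay below it on all 4 arrays, between the 16.9 and 35.9 percentiles. The next gene on either side was another listed SAUR for 24 of the 58 loci, and for neither of the measured ones. Only directly adjacent genes and listed loci were checked, so looser clusters or unlisted SAUR neighbours were not examined. Their annotated lengths, 872 bases for SAUR10 and 897 bases for SAUR57, are close to the 864.5 bases that is the median of the 58 (RefSeq, TAIR10.1).

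SAUR10 had lower signals in both 35S:AtRALF1 samples than in either control sample, but the difference did not pass the test. Its signal was 19.5 in the first and 13.4 in the second repeat of 35S:AtRALF1, against 19.8 in the first and 38.6 in the second repeat of the control. The groups did not overlap in signal, but in the first repeat the genotypes were nearly equal. By percentile within its array, 35S:AtRALF1 was there slightly above the control (28.4 against 27.5). The difference came from the second repeat, mainly from its high control array. The means were 16.5 ± 4.31 in 35S:AtRALF1 and 29.2 ± 13.3 in the control (SD, n = 2 each). On the log2(signal + 16) scale, which understates changes of dim genes, the difference was -0.45 (standard error 0.32, 95% interval -1.29 to 0.38). It missed the threshold of 0.05 in the test across the array (limma, Benjamini-Hochberg adjusted p = 0.987). An exact two-sided permutation test gave p = 0.333, which is the smallest that 2 against 2 allow. Arrays were separated in this direction for 18.1% of all probe sets. Taken by repeat, the difference was -0.01 in the first and -0.89 in the second, and it was -0.15 on the same scale without control replicate 2.

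SAUR57 did not differ between the genotypes beyond its spread. Its signal was 27.2 in the first and 6.7 in the second repeat of 35S:AtRALF1, and 21.8 in the first and 12.9 in the second repeat of the control. The 35S:AtRALF1 arrays thus held both the highest and the lowest value, and the control arrays lay between them. The means were 17.0 ± 14.5 in 35S:AtRALF1 and 17.4 ± 6.29 in the control (SD, n = 2 each). The log2 difference was -0.08 (standard error 0.39, 95% interval -1.09 to 0.94, limma adjusted p = 0.997). By repeat it was 0.19 in the first and -0.35 in the second, and its sign changed when either control replicate 1 or 35S:AtRALF1 replicate 2 was left out.

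**Figure D1:**
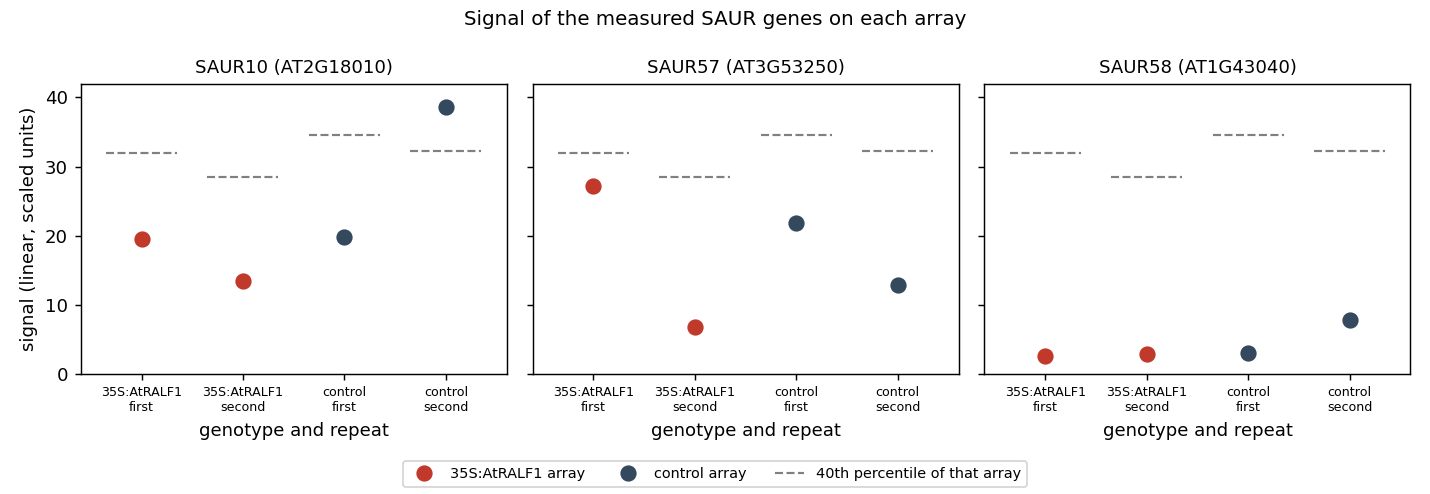
Signal (linear, scaled units) of SAUR10, SAUR57 and SAUR58 on each of the 4 arrays, by genotype and repeat, with the 40th percentile of each array as a dashed line. Every point lies under its line except SAUR10 on the second control array (38.6), and SAUR57 is lower on the arrays of the second repeat (6.7 and 12.9) than on those of the first (27.2 and 21.8).

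SAUR transcripts vary with light and time of day, and the labels do not give the hour of harvest, so the second repeat was also set against the first. SAUR57 was lower in the second repeat in both genotypes, at 6.7 in 35S:AtRALF1 and 12.9 in control seedlings, against 27.2 in 35S:AtRALF1 and 21.8 in control seedlings of the first. The repeats did not overlap. The means were 9.80 ± 4.38 in the second and 24.5 ± 3.82 in the first repeat (SD, n = 2 each). All come from signals treated as not told from background, so no fold is given. The log2 difference was -0.66 (standard error 0.23, 95% interval -1.27 to -0.05), with an unadjusted p of 0.0389 and an adjusted p of 0.40 from limma, so it was not called. With the genotype as a term the unadjusted p was 0.0599 (limma). An exact two-sided permutation test gave p = 0.333, the smallest possible here. Second-repeat arrays both lay below both first-repeat arrays for 24.7% of all probe sets, and 11.8% of all probe sets had an unadjusted p below 0.05 between the repeats, against 4.31% between the genotypes. The larger part of the difference was in 35S:AtRALF1, with -0.93, beside -0.39 in the control.

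SAUR10 showed no common direction between the repeats. It was lower in the second repeat of 35S:AtRALF1 (13.4, against 19.5 in the first) and higher in the second repeat of the control (38.6, against 19.8 in the first). The means were 26.0 ± 17.8 in the second and 19.7 ± 0.212 in the first repeat (SD, n = 2 each), and the log2 difference was 0.17 (standard error 0.36, 95% interval -0.77 to 1.1, limma adjusted p = 0.885). On the 35S:AtRALF1 arrays both SAUR genes were thus lower in the second repeat, whereas on the control arrays SAUR57 was lower and SAUR10 higher.

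Counted together, 0 of the 2 SAUR genes were called between the genotypes and 0 between the repeats, where limma called 0% of all probe sets in either comparison. At an unadjusted p under 0.05 there were 980 probe sets between the genotypes, neither SAUR among them, and 2689 between the repeats, SAUR57 among them. The median log2 difference of the 2 genes was -0.27 for 35S:AtRALF1 minus control, where that of all probe sets was -0.04, and -0.24 for the second minus the first repeat, where that of all probe sets was -0.03. With 2 genes this median is their midpoint. On the log2(signal + 16) scale neither changed at least 2-fold in the same direction in both repeats, which 0.541% of all probe sets did. SAUR57 could not have been counted as lowered there. Its control signal of 12.9 in the second repeat was too low for a 2-fold decrease once 16 was added. The count therefore says nothing on a decrease of SAUR57. One more locus that RefSeq names as a SAUR, SAUR58 (AT1G43040), has a probe set of its own but was not on the list, and was added after its values were seen. It was dimmer still, at 2.6 and 2.9 in 35S:AtRALF1 and 3.0 and 7.8 in control seedlings, no higher than the 16.2 percentile on any array, with a log2 difference of -0.18 (limma adjusted p = 0.987).

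Of the genes that act with SAURs in auxin response, few were named. Aux/IAA genes, which encode repressors of auxin response, had 7 of 29 listed members measured, of which 2 had a positive and 5 a negative log2 difference between 35S:AtRALF1 and control (median -0.24) and 0 were called. Only IAA18 among them had a mean above the 40th percentile, with a log2 difference of -0.11. GH3 genes, most of which encode enzymes that conjugate auxin to amino acids, had 5 of 9 members measured, 2 positive and 3 negative (median -0.05), and 0 were called. Of the 5, 3 had a mean above the 40th percentile. GH3.3, an auxin-induced member, had signals of 49.1 and 228.8 in 35S:AtRALF1 and 30.3 and 46.0 in control seedlings, which do not overlap, a separation that 13.3% of all probe sets showed in this direction. Its log2 difference was 1.24 with a standard error of 0.69 (limma adjusted p = 0.987), and it came mainly from the second repeat. GH3.5 had 267.4 and 352.5 in 35S:AtRALF1, against 220.6 and 237.1 in the control, a log2 difference of 0.40 (adjusted p = 0.987 from limma). GH3.17 had 138.1 and 103.6 in 35S:AtRALF1, against 134.5 and 131.3 in the control, a log2 difference of -0.13. No ARF, TIR1/AFB, PIN or AUX1/LAX or proton pump gene on the lists, and no morning clock gene, was named alone for a probe set. None of them was therefore measured here.

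For the repeats, 1 of 9 evening clock genes and 1 of 16 light signalling genes on the lists could be set beside SAUR57. The auxin lists were also measured between the repeats, with 0 genes called. Of the Aux/IAA genes 6 were higher and 1 lower in the second repeat (median 0.20), and of the GH3 genes 2 higher and 3 lower (median -0.14). The median of all probe sets was -0.03. Only 1 of the 7 Aux/IAA and 3 of the 5 GH3 genes had a mean above the 40th percentile, so these directions rest largely on dim signals. GIGANTEA (GI), which peaks late in the day, had signals of 119.5 and 95.4 in the second repeat, against 267.9 and 236.7 in the first, with 35S:AtRALF1 given before control in each. Its log2 difference was -1.12 (standard error 0.21), in the same direction as SAUR57, with an adjusted p of 0.305 from limma. The repeats did not overlap for GI, a separation that 24.7% of all probe sets showed in this direction. HYH, a light-response transcription factor related to HY5, had 92.6 and 155.4 in the second repeat, against 45.7 and 73.6 in the first, a log2 difference of 0.88 (standard error 0.35, limma adjusted p = 0.431). It ran opposite to SAUR57, also without overlap, which 4317 of 22746 probe sets showed in that direction. Harvest time was not recorded in the labels, and its part in the SAUR57 values was not tested.

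**Figure D2:**
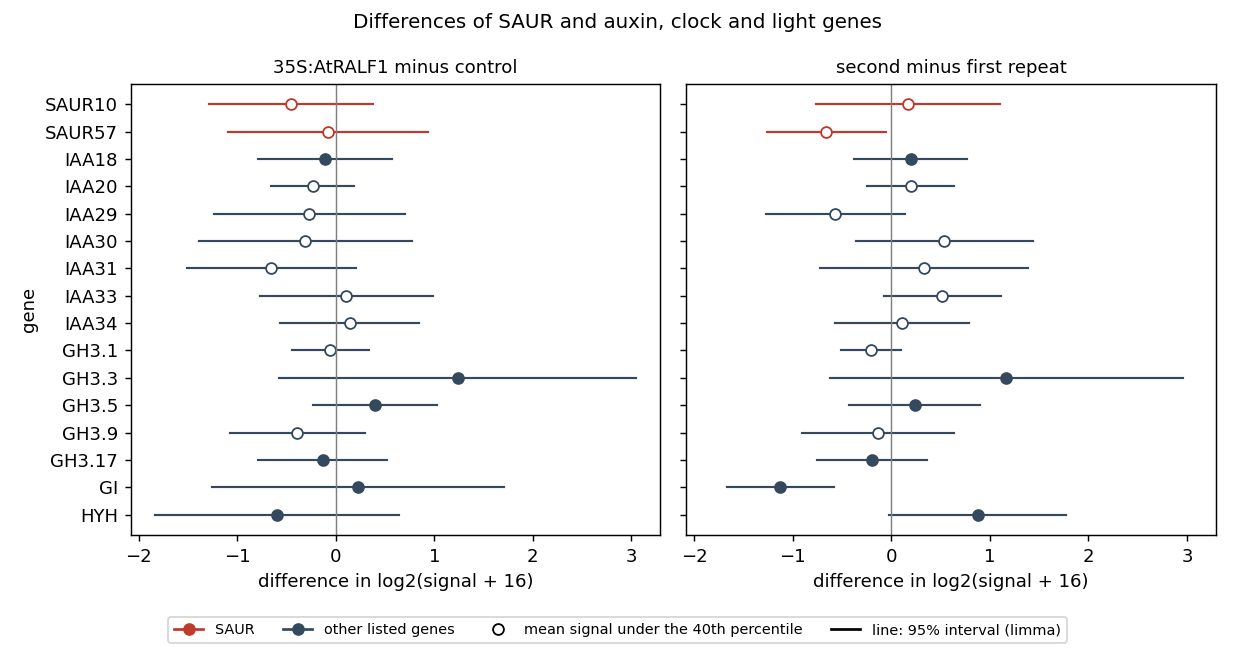
Difference in log2(signal + 16) for the measured SAUR, Aux/IAA and GH3 genes, GI and HYH, as 35S:AtRALF1 minus control (left) and second minus first repeat (right); points are limma estimates, lines their 95% intervals, and open points genes with a mean signal under the 40th percentile. Both SAUR intervals cross 0 between the genotypes. Between the repeats those of SAUR57 (-1.27 to -0.05) and GI (-1.67 to -0.58) lie below 0. The intervals are not adjusted for the number of probe sets, and neither gene was called (limma adjusted p = 0.40 for SAUR57 and 0.305 for GI).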

How the data were processed

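RNA of 4 seedling samples was hybridized to Affymetrix arrays, 1 per sample. The deposited intensities are linear and were brought to one level by the authors: trimmed of 2% at each end, every array averages 125.0. They were taken as they stand; which software made them is not given in the sources used. Without the 64 controls, 22746 probe sets entered as log2(signal + 16), with signals under 1 set to 1, into limma 3.58.1 in R 4.3.3 (lmFit, eBayes with an intensity trend, two-sided, Benjamini-Hochberg over all probe sets, threshold 0.05), for genotype and for repeat. On data simulated with independent noise, the procedure was required to return the mean differences put in. Same-numbered arrays were not made to correlate there, so its error rates on the present arrays were not examined. The number of arrays limits the precision.

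A single gene is given by the probe table for 13513 probe sets, several genes for 503, and no gene for 8730. Its loci were matched through RefSeq by gene ID or, for 77 probe sets, by name. Both SAUR genes were found through this matching. The SAUR members and the lists of other genes were chosen with earlier results of these data known. Values on each array were to be given for members above the 40th percentile with the largest changes. The mean of neither SAUR gene reached it, and both are given because no others were measured. Of other lists, up to 3 members above that percentile are named. A list of D-clade phosphatases is not used, since RefSeq does not name its 4 measured loci as such. No SAUR sequence was at hand, and none is shown.

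Alternatives were cyclic loess or quantile normalization, an offset of 1 or of 64, a test of the brightest 60% of probe sets, eBayes without its trend, the other factor as a block, each array left out, other fold thresholds, and only probe sets without a shared-probe mark, which both SAUR probe sets already are.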

Additional observations from a re-analysis of the deposited data

Results flagged for a closer look

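The genotype difference of SAUR57 ran in opposite directions in the repeats: 35S:AtRALF1 minus control was -0.35 in the second and 0.19 in the first on the log2(signal + 16) scale, which is -0.54 between them. The repeat difference of SAUR10 ran in opposite directions in the genotypes: second minus first was -0.27 in 35S:AtRALF1 and 0.61 in the control, which is -0.88 between them. Each of these values rests on 1 array against 1, so the difference between repeats or genotypes was not tested. For scale, the sign of the genotype difference was opposite in the repeats for 44.1% of all probe sets. Both genes are at or near the level treated as background.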

How the results depend on the processing

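Between the genotypes the number of probe sets called by limma was 1 with the brightest 60%, where fewer are tested, 1 with the replicate block, and 0 in the other settings. Between the repeats it was 41 with the brightest 60% and 0 otherwise. Neither SAUR gene is among that 60%, so that setting gives no value for them, and neither was called in any setting. The labels do not say what the repeat numbers stand for. Deviations of same-numbered arrays correlated (0.39 across probe sets, which are not independent), 2 pairs are too few to settle a pairing, and in this balanced design a replicate block cannot move a difference, only its error: with it the adjusted p from limma was 0.774 for SAUR10 and 0.965 for SAUR57. At an unadjusted p under 0.05 it gave 1648 probe sets, against 980 without it.

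SAUR10 kept its negative genotype difference in all settings run, at -0.74 with an offset of 1 and -0.21 with 64, and between -0.76 and -0.15 with 1 array left out. SAUR57 had 0.0065 with quantile normalization, and between -0.54 and 0.39 with 1 array left out. Between the repeats SAUR57 stayed negative in all settings run, at -1.29 with an offset of 1 and -0.26 with 64, whereas SAUR10 lay between -0.28 (without control replicate 2) and 0.62. The midpoint of both genes lay between -0.57 and 0.03 for the genotypes and between -0.56 and 0.07 for the repeats with 1 array left out. In those fits the single remaining array takes its spread from the other group. The count of SAUR genes changed in both repeats was 0 at each fold threshold, offset and normalization tried. At 3-fold, or with the offset of 64, the control signals were too low for any decrease to be counted. Those settings therefore say nothing on a decrease. Signals this low limit what can be said of either gene.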
